A study of Mus musculus with 12 samples.

Results

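The genes of fatty acid uptake and beta-oxidation were examined in single muscle fibers of young and aged mice. They were 33 genes chosen by name, with earlier results of these data known. They run from lipoprotein lipase at the cell surface to the enzymes of the mitochondrial matrix. All 33 were among the 55367 gene symbols of the files. The fibers came from the extensor digitorum longus (EDL), a fast hindlimb muscle, of C57BL/6J mice, in 3 groups of 4 samples. Young fibers were taken from mice of 3 to 4 months, whereas aged fibers, from mice of 26 to 28 months, were sorted into Fluo-4 normal and Fluo-4 abnormal ones. Fluo-4 is a dye that fluoresces when it binds calcium, and the abnormal fibers are those of aged male mice whose staining was aberrantly bright under a fluorescence stereomicroscope. No genetic change and no drug distinguished the groups. All fibers were released with collagenase, and full-length cDNA was made with the SMART-Seq v4 kit, which does not record the transcribed strand. The sources used here do not say how many fibers made up a sample or whether samples with different numbers came from different mice. The p-values therefore measure the spread between these samples, which may be partly technical.

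Muscle takes up long-chain fatty acids that lipoprotein lipase frees from circulating triglycerides, or releases them from its own lipid droplets. Transporters in the sarcolemma and a cytosolic binding protein carry them to acyl-CoA synthetases, and the carnitine shuttle passes the activated acyl groups into the mitochondrial matrix. There each turn of the beta-oxidation spiral consists of a dehydrogenation, a hydration, another dehydrogenation and a thiolytic cleavage that yields acetyl-CoA. The first dehydrogenation hands its electrons to the electron transfer flavoprotein, and the acetyl-CoA enters the TCA cycle. Type IIb fibers, which dominate the EDL muscle of the mouse, rely mainly on glycolysis and oxidize less fat than slow fibers. Many of these genes are known targets of the PPAR nuclear receptors, which bind DNA together with RXR, and of the estrogen-related receptors (ERR).

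The sequences below are shown because several of the 33 genes are textbook PPAR targets. The 300 bases before the start of each canonical transcript (GENCODE vM39 on GRCm39, the build of the files) were searched on both strands for the PPAR/RXR element, a direct repeat of AGGTCA with any 1 base between the copies, with at most 2 mismatches. It was found before 5 of the 33 genes (15.2%), against 753 of 21738 protein-coding genes (3.46%). In *Cpt1b*, the muscle form of carnitine palmitoyltransferase 1, the match lies 87 to 75 bases before the start, on the other strand from the gene. Its upstream sequence, chr15:89310226-89310525 on the minus strand of GRCm39, is printed 5′ to 3′ with the match in capitals.
Cpt1b upstream: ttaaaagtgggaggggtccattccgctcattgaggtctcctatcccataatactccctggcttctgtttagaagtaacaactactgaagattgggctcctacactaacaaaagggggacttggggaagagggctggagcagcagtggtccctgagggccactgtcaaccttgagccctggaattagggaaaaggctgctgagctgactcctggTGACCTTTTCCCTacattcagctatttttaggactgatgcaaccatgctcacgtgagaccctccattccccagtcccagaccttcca
Of the 5 genes, *Cpt1b* and *Echs1* passed between the aged groups and *Plin2*, *Lipe* and *Acot2* did not. The other 4 matches are given by their letters alone, read along the gene's own strand, with the position of their first base before the start: *Echs1* at -28, *Plin2* at -62, *Lipe* at -112 and *Acot2* at -267.
Echs1 match, chr7:139696405-139696417: AGGTCACGGGTCC
Plin2 match, chr4:86588509-86588521: GGACCCCTGACCT
Lipe match, chr7:25098235-25098247: GGGTCACTGGTCA
Acot2 match, chr12:84034161-84034173: AGGTAAAGGGTCA
The ERR element, AGGTCA directly preceded by TCA and so sharing a copy of the repeat, was found without mismatch before 0 of the 33 genes and before 116 of all genes (0.534%). The NRF1 element, GCGCA and GCGC with any 1 base between them, was found without mismatch before *Acaa2*, *Etfb* and *Acot13* (9.09% of the 33) and before 830 of all genes (3.82%). The elements were searched with different mismatch limits, so their counts cannot be compared with each other. A match describes letters in these windows only.

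The deposited values were TPM, a unit corrected for depth and transcript length, and the read depth behind each value is unknown. Between 16841 and 17936 genes were above 0 TPM in a sample. The 7 myofiber markers summed to 124000 to 163000 TPM in every sample, and of the 8 adipocyte markers *Adipoq*, *Plin1*, *Lep* and *Cidec* were listed at 0 TPM in all 12 samples. The 7 immune markers summed to 0.794 to 2.02 TPM in young, 1.01 to 1.77 TPM in normal and 2.63 to 6.54 TPM in abnormal samples, the last apart from both others, and *Cd3e* among them, a T cell gene, rose from 0.718 ± 0.115 to 3.05 ± 1.23 TPM (SD, n = 4) between the aged groups (log2 change 1.195, adjusted p = 0.00294). The part of such cells in the results below was not tested. The *Myh4* share is the TPM of type IIb *Myh4* divided by the summed TPM of the myosin heavy chains *Myh1*, *Myh2*, *Myh4* and *Myh7*. This share was 96.9% to 98.6% in the young, 93.7% to 99.2% in the normal and 98.9% to 99.7% in the abnormal samples. *Myh4* was higher in the abnormal than in the normal samples (log2 change 0.66, adjusted p = 0.0198). In bulk samples, a smaller share of one fiber type and less RNA per fiber cannot be told apart. Changes below are differences in log2(TPM + 1), which understate the changes of low genes, with adjusted p-values from limma over 14427 genes.

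By level, *Fabp3*, which encodes the fatty acid binding protein of heart and skeletal muscle, was the most abundant of the 33 genes, with a mean of 452 TPM over the 12 samples. It was followed by *Etfb*, the beta subunit of the electron transfer flavoprotein, at 408 TPM, and *Acot13*, a mitochondrial acyl-CoA thioesterase, at 256 TPM. The dehydrogenases for very long, medium and long chains, *Acadvl*, *Acadm* and *Acadl*, were at 197, 187 and 159 TPM, and *Acads*, for short chains, at 21.3 TPM. *Cpt1b* stood at 119 TPM and its liver form *Cpt1a* at 0.726 TPM, the lowest of the set. The hormone-sensitive lipase gene *Lipe* was the next lowest at 2.61 TPM. All 33 genes were tested. Their TPM summed to 3435, 3416, 3611 and 3843 in the young samples, 4088, 4388, 4206 and 4211 in the normal samples and 3222, 3123, 2814 and 2918 in the abnormal samples. The sums of the 3 groups did not overlap. The mean sum was 3576 ± 198 TPM (SD, n = 4) in young, 4223 ± 124 TPM (SD, n = 4) in normal and 3019 ± 186 TPM (SD, n = 4) in abnormal fibers. Of the 33 genes, 29 had their highest group mean in the normal fibers and 23 their lowest in the abnormal fibers. This order was not counted over all genes.

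**Figure D1:**
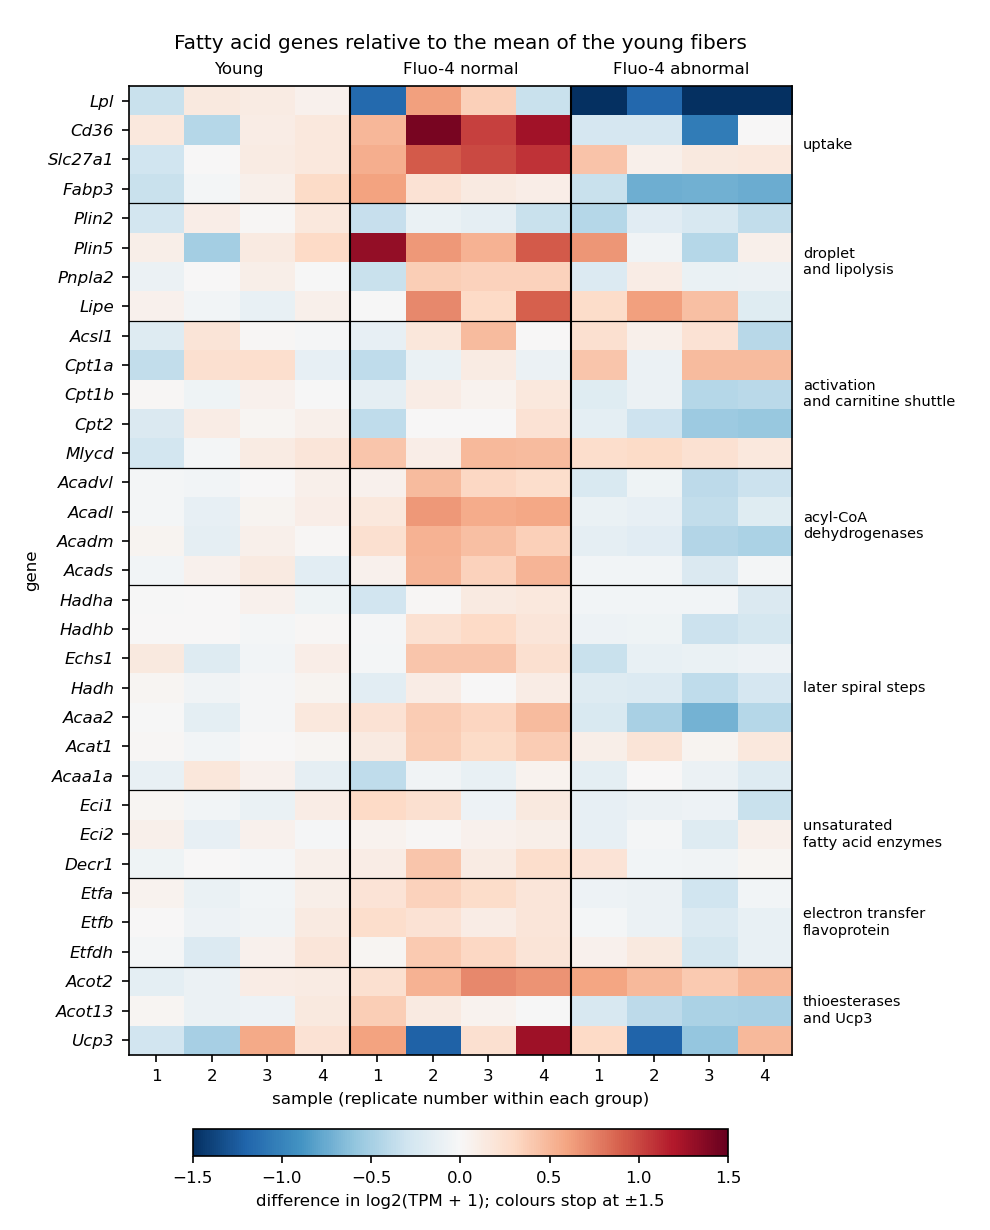
Difference in log2(TPM + 1) of each of the 33 genes (rows, grouped by step) from the mean of the 4 young samples, in each of the 12 samples (columns, by replicate number). Red fills most of the Fluo-4 normal columns and blue most of the Fluo-4 abnormal columns, with *Lpl* the darkest blue (colours stop at 1.5 either way). Normal replicate 1 has the lowest value of the normal samples in 24 genes.

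**Figure D2:**
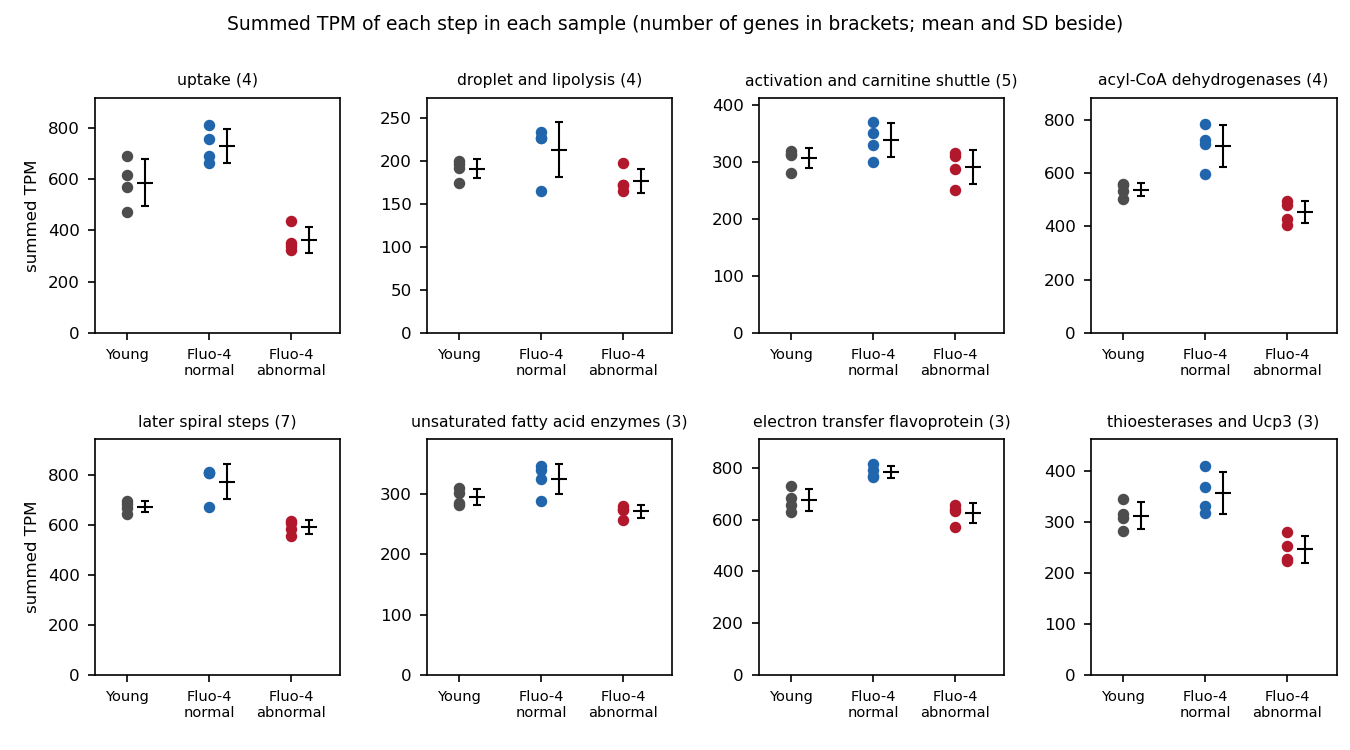
Summed TPM of the genes of each step in each sample, with the mean and SD (n = 4) beside the points. For uptake the abnormal samples lie between 325 and 437 TPM, below the 662 to 810 TPM of the normal samples, whereas for activation and the carnitine shuttle the groups overlap.

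The Fluo-4 abnormal fibers were first compared with the Fluo-4 normal fibers of the same age. Of the 33 genes, 17 fell at an adjusted p under 0.05, among them all 4 uptake genes and all 4 acyl-CoA dehydrogenases, and 0 rose (22 lower and 1 higher at an unadjusted p under 0.05). Over all genes tested, 1.99% were called lower and 7.36% higher, and 3693 of 14427 had an unadjusted p under 0.05. The fitted change was negative in 31 genes, with a median of -0.32 (range -1.97 to 0.43), while the median of all genes tested was 0.10, and 0.20 among the 6348 genes with a mean of at least 5 TPM in any group. The highest abnormal sample was below the lowest normal sample in 16 genes, and the reverse held in 0 genes, against 2.54% and 11.5% of all genes. The same-numbered samples of the aged groups deviated together, which the reported fit leaves out. With the replicate number as a block 11 genes were called lower instead of 17, and over all genes 232 instead of 287. With the *Myh4* share as a covariate 5 were called (*Fabp3*, *Acadl*, *Acadm*, *Acaa2* and *Acot13*) and the median was -0.19. In that fit 108 of all genes were called lower, and the median of all genes was 0.17. With the share added to the block 0 were called (10 lower and 1 higher unadjusted, and over all 14427 genes 0 adjusted and 2461 unadjusted). Rescaled by TMM-type factors, which moved the median of all genes from 0.10 to 0.00, 24 of the 33 were called lower and 0 higher (32 negative and 1 positive change), and the calls over all genes turned from 287 lower and 1062 higher to 542 lower and 306 higher.

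**Figure D3:**
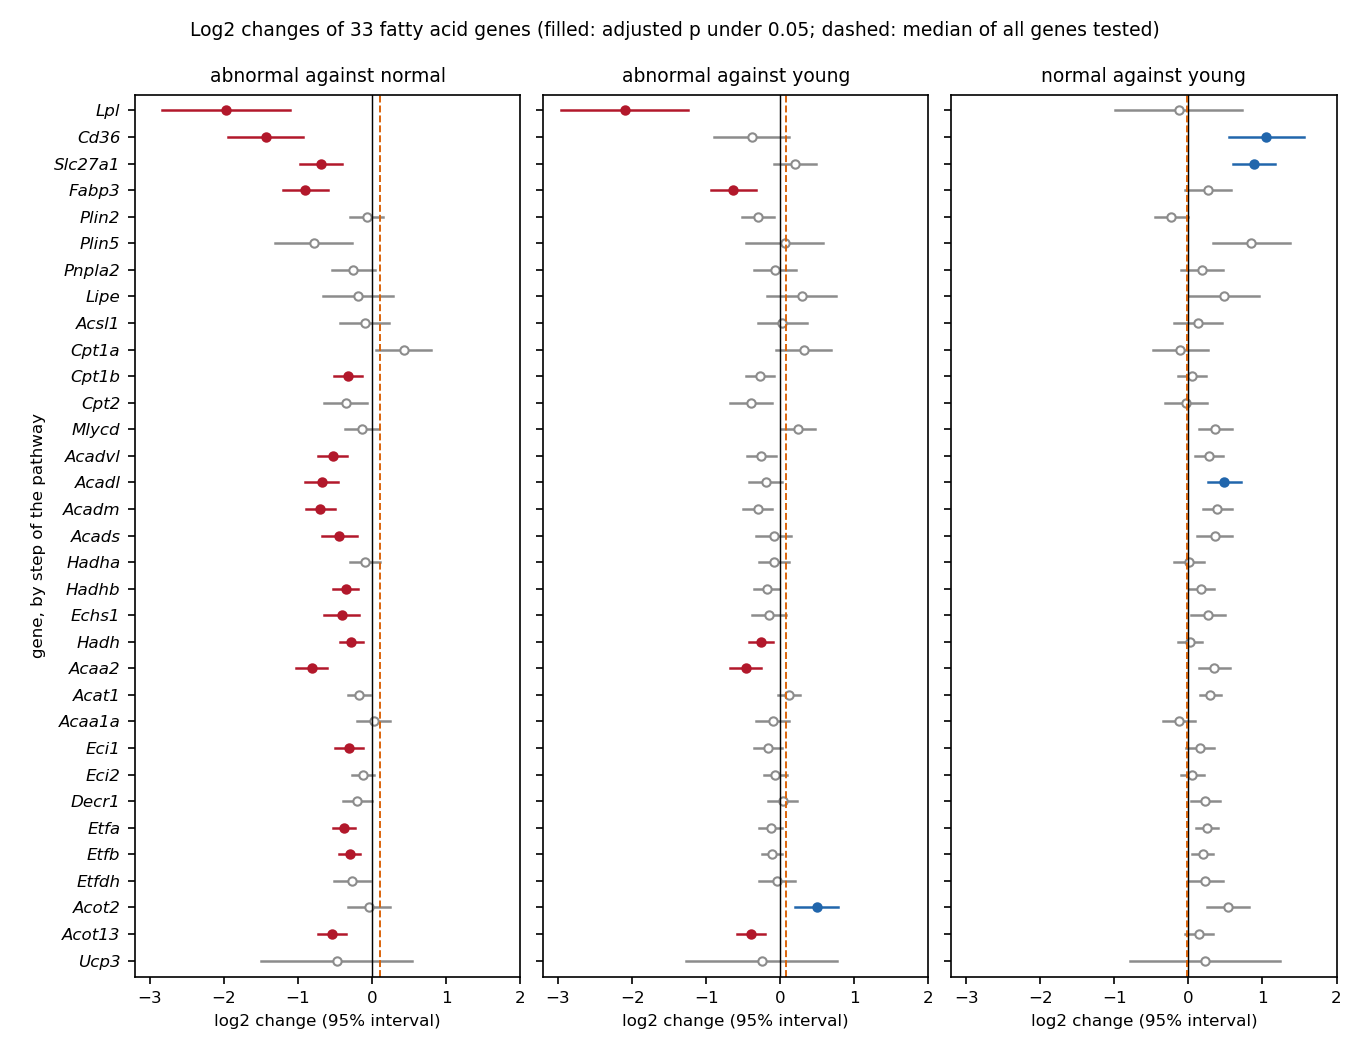
Log2 change and 95% interval of each gene in the 3 comparisons, filled where the adjusted p was under 0.05 (red lower, blue higher), with the median of all genes tested as a dashed line. The intervals of 17 genes called lower lie left of 0 in the abnormal against normal panel, and 28 of the 33 points lie right of 0 in the normal against young panel.

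The uptake genes had the largest median change of the steps, -1.17. *Lpl* (chr8:69284603-69360100, plus strand of GRCm39) encodes lipoprotein lipase, which acts on the capillary surface after export from the fiber. Its values were 50.6, 70.6, 69.6 and 66.6 TPM in young replicates 1 to 4, 27.9, 98.2, 82.0 and 50.4 TPM in the normal samples and 17.0, 27.6, 6.11 and 13.2 TPM in the abnormal samples. The abnormal samples lay below both other groups, though abnormal replicate 2 came close to normal replicate 1. Against normal fibers *Lpl* fell by 1.97 in log2 units, with a standard error of 0.40 (adjusted p = 0.00952). The call was lost with the replicate block (adjusted p = 0.0657), with only the aged groups in the fit (0.0675) and with the *Myh4* share (-0.97, adjusted p = 0.183). The antisense lncRNA *Gm64236* overlaps *Lpl* over 53233 bp, and unstranded libraries cannot separate the reads of overlapping genes.

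*Cd36* (chr5:17986432-18094067, minus strand) encodes the fatty acid translocase of the sarcolemma, which endothelial cells and adipocytes carry as well. It was at 29.98, 19.6, 29.1 and 29.9 TPM in young, 38.1, 73.3, 55.8 and 65.6 TPM in normal and 22.4, 22.4, 12.5 and 27.0 TPM in abnormal samples. The normal samples were above all others, and young and abnormal samples overlapped. From normal to abnormal fibers the log2 change of *Cd36* was -1.43 (standard error 0.23, adjusted p = 0.00334). It was -0.92 with the *Myh4* share in the fit (adjusted p = 0.0668). The 8 endothelial markers summed to 9.55 to 21.3 TPM in young, 15.3 to 48.9 TPM in normal and 5.19 to 29.5 TPM in abnormal samples. The adipocyte gene *Adig* was at 0.606 ± 0.506 TPM (SD, n = 4) in young, 1.37 ± 0.533 TPM in normal and 0.430 ± 0.349 TPM in abnormal fibers. The aged groups did not overlap in *Adig* (log2 change -0.73, adjusted p = 0.066). *Cfd* and *Retn* were at 0 TPM in all young and abnormal samples. In normal fibers they were at 0.728 ± 1.36 TPM and 0.078 ± 0.156 TPM (SD, n = 4), with SDs above the means. The 8 adipocyte markers, of which *Fabp4* makes up most, summed to 15.6 to 28.9, 33.6 to 113 and 8.96 to 64.5 TPM, and the 5 erythroid markers to 33.1 to 121, 119 to 482 and 44.4 to 236 TPM. The part of these cells in the change of *Cd36* and *Lpl* was not tested.

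*Slc27a1* (chr8:72021095-72041866, plus strand) encodes the fatty acid transport protein FATP1. Its values were 14.7, 18.4, 19.9 and 20.5 TPM in young, 27.2, 35.4, 37.1 and 39.7 TPM in normal and 24.8, 19.4, 20.3 and 20.4 TPM in abnormal samples. Every normal sample exceeded every other sample, by the least in replicate 1. From normal to abnormal fibers it changed by -0.68 (standard error 0.13, adjusted p = 0.00749), with an adjusted p of 0.0605 under the replicate block and 0.102 with the *Myh4* share. *Fabp3* (chr4:130202388-130209259, plus strand) was at 375, 461, 498 and 573 TPM in young, 716, 550, 517 and 506 TPM in normal and 373, 284, 286 and 280 TPM in abnormal samples. All abnormal samples were below both other groups, though abnormal replicate 1 lay just under young replicate 1. Against normal fibers *Fabp3* fell by 0.90 (standard error 0.14, adjusted p = 0.00281), and within the 4 same-numbered pairs the difference ranged only from -0.95 to -0.85. *Fabp3* overlaps *Zcchc17* on the other strand over 3076 bp.

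**Figure D4:**
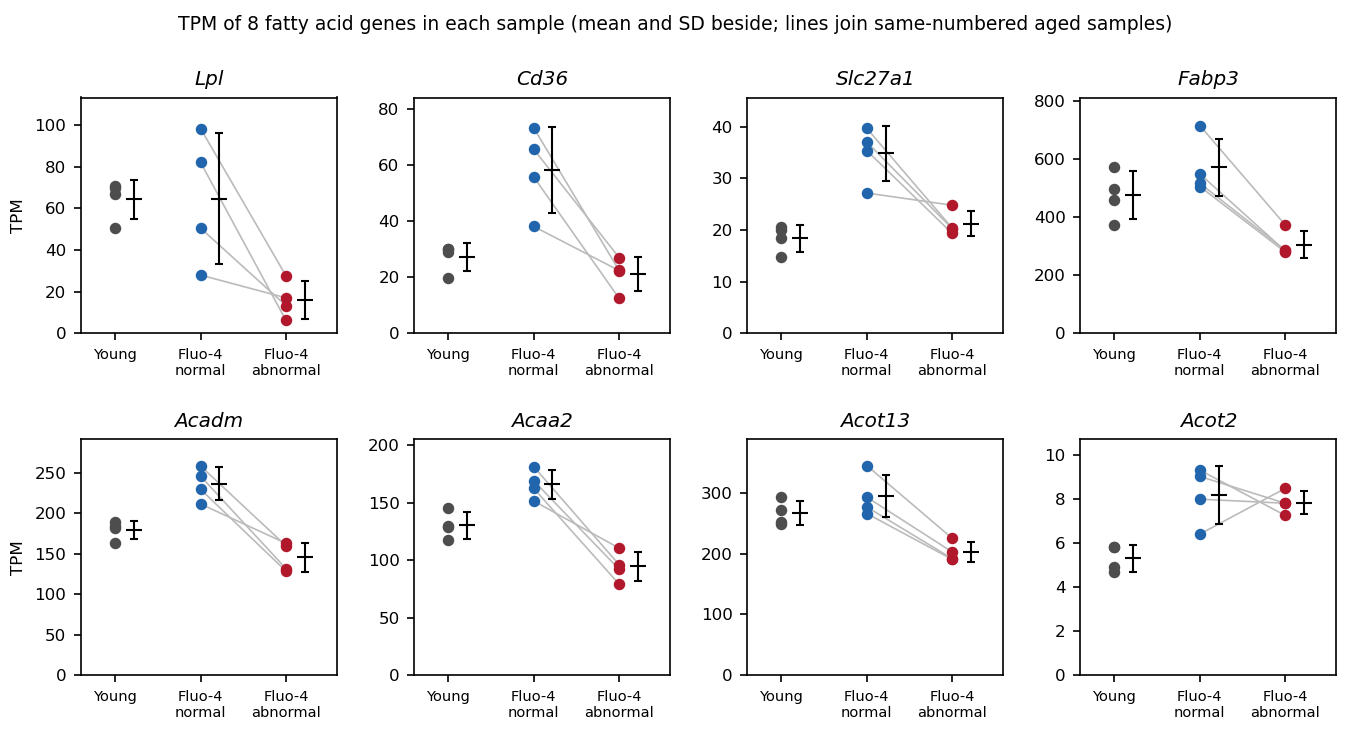
TPM of 8 genes in each sample, with the mean and SD (n = 4) beside the points and lines joining same-numbered aged samples. In *Lpl*, *Cd36*, *Slc27a1*, *Fabp3*, *Acadm*, *Acaa2* and *Acot13* every line descends and the aged groups do not overlap, whereas in *Acot2* both aged groups lie above the young samples.

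The lipid droplet and lipolysis genes gave 0 calls between the aged groups, with 4 of 4 fitted changes negative and a median of -0.22. *Plin5*, a coat protein that ties droplets to mitochondria, was at 21.1, 12.9, 11.69 and 15.7 TPM in normal and 13.1, 7.57, 5.59 and 8.33 TPM in abnormal samples. The abnormal sample was the lower in each of the 4 same-numbered pairs, but the groups overlapped through abnormal replicate 1. The log2 difference was -0.78 with a standard error of 0.24 (adjusted p = 0.0593), and *Plin5* passed with the replicate block (adjusted p = 0.0193). *Pnpla2*, which encodes adipose triglyceride lipase, had a log2 change of -0.25 (adjusted p = 0.257). Normal replicate 1 was at 106 TPM against 169 to 172 TPM in the other normal samples, and without it the adjusted p of *Pnpla2* was 0.00743. *Plin2*, the common droplet coat gene, ranged from 36.9 to 44.1 TPM in normal and 35.0 to 41.8 TPM in abnormal samples (log2 change -0.07, 95% interval -0.29 to 0.15). *Lipe* was below 5 TPM in every sample (log2 change -0.19, adjusted p = 0.617).

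Of the 5 activation and shuttle genes, 1 passed. *Cpt1b* (chr15:89300606-89310239, minus strand) was at 126, 119, 130 and 123 TPM in young, 113, 135, 129 and 139 TPM in normal and 110, 117, 91.9 and 93.6 TPM in abnormal samples. Abnormal replicates 3 and 4 were the lowest of all, and the aged groups overlapped. Its log2 change was -0.32 (standard error 0.09, adjusted p = 0.036), which was lost in 12 of 24 alternatives, the replicate block among them (adjusted p = 0.121). A read-through gene, *Gm44502*, shares the exons of *Cpt1b*, but was never above 0.198 TPM. *Cpt1a*, which did not pass, was at 0.249, 0.903, 0.917 and 0.479 TPM in young, 0.234, 0.499, 0.758 and 0.522 TPM in normal and 1.14, 0.515, 1.24 and 1.24 TPM in abnormal samples. It was the higher in the abnormal sample of each same-numbered pair, at a level near 1 TPM, and the log2 difference was 0.43 with a standard error of 0.17 (adjusted p = 0.134). *Acsl1*, the main long-chain acyl-CoA synthetase of muscle (-0.10, adjusted p = 0.718), and *Mlycd*, whose enzyme removes the malonyl-CoA that inhibits CPT1 (-0.13, adjusted p = 0.476), did not pass. *Cpt2*, of the inner membrane, ranged from 25.4 to 38.9 TPM in normal and 22.1 to 29.98 TPM in abnormal samples (-0.36, adjusted p = 0.107), and passed without normal replicate 1 (adjusted p = 0.0358).

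All 4 acyl-CoA dehydrogenases, which catalyze the first step of the spiral for different chain lengths, fell, with a median change of -0.61 and no overlap between the aged groups. *Acadm* (chr3:153627989-153650317, minus strand), the medium-chain enzyme, was at 184, 164, 189 and 182 TPM in young, 212, 259, 246 and 230 TPM in normal and 163, 160, 132 and 129 TPM in abnormal samples. The 3 groups did not overlap, with normal highest and abnormal lowest. The log2 change against normal fibers was -0.70 (standard error 0.09, adjusted p = 0.0008945). *Acadl* (chr1:66868267-66902633, minus strand), the long-chain enzyme, was at 142, 133, 149 and 155 TPM in young, 161, 228, 213 and 217 TPM in normal and 135, 132, 112 and 127 TPM in abnormal samples. Normal samples were above all others, replicate 1 by the least, and the change was -0.68 (standard error 0.10, adjusted p = 0.0023). *Acadvl* (chr11:69900853-69906270, minus strand), the very long-chain enzyme of the inner membrane, was at 189, 188, 194 and 204 TPM in young, 203, 270, 240 and 232 TPM in normal and 165, 185, 147 and 154 TPM in abnormal samples. The abnormal samples were below both other groups, with a change from normal fibers of -0.53 (standard error 0.09, adjusted p = 0.00377), or -0.30 with the *Myh4* share (adjusted p = 0.0714). *Acads* (chr5:115248357-115257405, minus strand), the short-chain enzyme, was at 19.1, 20.6, 21.7 and 17.5 TPM in young, 20.6, 28.4, 25.3 and 28.4 TPM in normal and 19.0, 19.0, 16.8 and 19.2 TPM in abnormal samples. The gap between the aged groups was the narrowest of the 4, and the change of -0.44 (standard error 0.11, adjusted p = 0.0232) had an adjusted p of 0.0636 under the replicate block.

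Of the 7 genes for the later steps, *Acaa2*, *Hadhb*, *Echs1* and *Hadh* fell and the other 3 did not pass. *Acaa2* encodes the mitochondrial 3-ketoacyl-CoA thiolase, which cleaves off acetyl-CoA. It was at 130, 117, 129 and 145 TPM in young, 151, 169, 162 and 181 TPM in normal and 110, 92.1, 79.1 and 96.0 TPM in abnormal samples, so that the 3 groups did not overlap. The change against normal fibers was -0.82 (standard error 0.10, adjusted p = 0.000688), which had the smallest adjusted p of the 33 genes and was kept in 23 of 24 alternatives. *Echs1* (chr7:139684839-139696570, minus strand), the short-chain enoyl-CoA hydratase, was at 129, 101, 113 and 125 TPM in young, 114, 156, 155 and 138 TPM in normal and 92.4, 108, 109 and 111 TPM in abnormal samples. Normal replicate 1 lay only just above the highest abnormal sample. The change was -0.41 (standard error 0.11, adjusted p = 0.0291), or -0.12 with the *Myh4* share (adjusted p = 0.528), and the adjusted p rose to between 0.0518 and 0.0788 when any one of abnormal replicates 1 to 3 or normal replicates 2 to 4 was left out. *Hadh* (chr3:131027068-131065750, minus strand), the short-chain hydroxyacyl-CoA dehydrogenase, was at 85.0, 80.6, 82.1 and 85.9 TPM in young, 74.6, 90.5, 83.9 and 90.2 TPM in normal and 72.9, 72.4, 63.7 and 69.7 TPM in abnormal samples. The abnormal samples were the lowest, normal replicate 1 being next, with a change of -0.28 (standard error 0.07, adjusted p = 0.0309, and 0.0909 under the block).

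*Hadha* and *Hadhb* encode the alpha and beta subunits of the mitochondrial trifunctional protein, which carries out the last 3 steps for long chains. They are transcribed in opposite directions from canonical starts 65 bp apart on chromosome 5, and their annotated gene bodies overlap by 984 bp. The 64 bases between the 2 starts, chr5:30360182-30360245 of GRCm39, read along the plus strand of *Hadhb* and hold no match to the 3 elements searched.
Between Hadha and Hadhb: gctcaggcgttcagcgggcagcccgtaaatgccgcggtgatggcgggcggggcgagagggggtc
*Hadhb* was at 186, 185, 182 and 188 TPM in young, 182, 217, 228 and 211 TPM in normal and 176, 177, 147 and 154 TPM in abnormal samples. The abnormal samples were below both other groups, and *Hadhb* fell by 0.36 against normal fibers (standard error 0.08, adjusted p = 0.0154, and 0.0996 under the block). *Hadha* was at 47.5, 47.7, 49.9 and 45.4 TPM in young, 38.9, 48.2, 52.5 and 53.3 TPM in normal and 46.3, 46.3, 46.1 and 40.8 TPM in abnormal samples. Its groups overlapped, with normal replicate 1 the lowest of all 12 samples, and the change was -0.09 (95% interval -0.30 to 0.11, adjusted p = 0.564). The ratio of *Hadhb* to *Hadha* was 3.64 to 4.15 in young, 3.96 to 4.68 in normal and 3.19 to 3.83 in abnormal samples. A processed pseudogene, *Hadhb-ps*, is 99.8% identical to *Hadhb* over 70.2% of the transcript and was listed at 64.9 to 99.3 TPM, so the reads of the 2 could not be assigned with certainty. Summed, *Hadhb* and *Hadhb-ps* were at 269 ± 4.45 TPM (SD, n = 4) in young, 303 ± 29.8 TPM in normal and 234 ± 18.8 TPM in abnormal fibers. *Acat1*, the acetoacetyl-CoA thiolase (-0.18, adjusted p = 0.115), did not pass, and *Acaa1a*, a peroxisomal thiolase, was at 26.6, 33.5, 32.2 and 36.1 TPM in normal and 31.3, 35.2, 32.8 and 30.5 TPM in abnormal samples. *Acaa1a* overlapped between the groups, with a log2 change of 0.02 (adjusted p = 0.924).

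Among the enzymes that rearrange the double bonds of unsaturated chains, *Eci1* (chr17:24645606-24658535, plus strand), the mitochondrial enoyl-CoA isomerase, was at 206, 195, 189 and 218 TPM in young, 249, 239, 192 and 223 TPM in normal and 185, 190, 191 and 160 TPM in abnormal samples. The aged groups were barely apart, with replicate 3 of both at the boundary. The change of -0.31 (standard error 0.09, adjusted p = 0.0412) was lost in 18 of 24 alternatives, the block among them (adjusted p = 0.1001). *Eci2*, its peroxisomal relative (-0.12, adjusted p = 0.31), and *Decr1*, the dienoyl-CoA reductase (-0.20, adjusted p = 0.187), did not pass. For the electron transfer flavoprotein, *Etfa* (chr9:55361714-55419792, minus strand) was at 230, 206, 215 and 234 TPM in young, 255, 282, 267 and 251 TPM in normal and 209, 209, 180 and 214 TPM in abnormal samples. The normal samples were above all others, and the change was -0.38 (standard error 0.07, adjusted p = 0.00637). *Etfb* (chr7:43093493-43107224, plus strand) was at 400, 378, 384 and 436 TPM in young, 480, 462, 432 and 451 TPM in normal and 391, 374, 346 and 368 TPM in abnormal samples. The aged groups did not overlap, and the 4 same-numbered pairs differed by much the same amount, -0.32 to -0.29. The change was -0.30 (standard error 0.06, adjusted p = 0.0121). *Etfbl*, which shares 70.1% of the *Etfb* transcript, was never above 0.626 TPM. *Etfdh*, whose enzyme passes these electrons to ubiquinone, ranged from 55.2 to 71.4 TPM in normal and 44.9 to 60.3 TPM in abnormal samples (-0.27, adjusted p = 0.144).

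The last 3 genes act beside the spiral. *Acot13* (chr13:24998351-25015547, minus strand), whose thioesterase hydrolyzes medium- and long-chain acyl-CoA, was at 272, 250, 253 and 295 TPM in young, 346, 294, 278 and 267 TPM in normal and 226, 203, 192 and 191 TPM in abnormal samples. The abnormal samples were below both other groups, with a change against normal fibers of -0.54 (standard error 0.09, adjusted p = 0.0035), kept in 23 of 24 alternatives. *Acot2*, a matrix thioesterase for long chains, differed in direction between the comparisons and is described with the young fibers. *Ucp3*, the uncoupling protein of skeletal muscle, ranged widely, from 16.0 to 93.7 TPM in normal and 16.1 to 54.0 TPM in abnormal samples. Replicate 2 was the lowest of both aged groups, and the change of -0.48 had a 95% interval of -1.49 to 0.54.

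Within same-numbered pairs of aged samples, 21 of the 33 genes were lower in the abnormal sample of all 4 pairs, 9 in 3 pairs and 1 gene, *Cpt1a*, in 0 pairs. Pairs were not counted in this way over all genes. The pairs differed in size. The median difference over the 33 genes was -0.13 in pair 1, -0.31 in pair 2, -0.51 in pair 3 and -0.45 in pair 4, and pair 1 had the least negative difference in 24 of the 33 genes. Normal replicate 1 was the lowest normal sample in 24 genes and the highest in 5, *Fabp3*, *Plin5*, *Eci1*, *Etfb* and *Acot13*. Its *Myh4* share was 99.2%, against 93.7%, 95.2% and 96.9% in the other normal samples and 99.4% in the abnormal sample of its pair. The part of the fiber type in these differences was not tested. Without normal replicate 1, 19 genes were called lower between the aged groups, 16 of them among the 17. Over all genes, 283 were then called lower instead of 287.

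The Fluo-4 abnormal fibers were then compared with the fibers of young mice. Of the 33 genes, 5 fell, *Lpl*, *Fabp3*, *Acaa2*, *Acot13* and *Hadh*, and 1 rose, *Acot2* (11 lower and 2 higher at an unadjusted p under 0.05). Over all genes, 2.41% were called lower and 6.09% higher, and 3323 of 14427 had an unadjusted p under 0.05. The fitted change was negative in 24 genes, with a median of -0.13, against 0.07 for all genes. The groups were apart in 11 genes, with the abnormal samples below the young in 9 and, in 2, *Acat1* and *Acot2*, above, which held for 3.95% and 12.2% of all genes. *Lpl* changed most, by -2.10 (standard error 0.40, adjusted p = 0.00651), and with *Acaa2* (-0.47, standard error 0.10, adjusted p = 0.0113) it passed in all 24 alternatives. The changes of *Fabp3* (-0.63, standard error 0.14, adjusted p = 0.0152) and *Acot13* (-0.40, standard error 0.09, adjusted p = 0.0154) were kept in 23, each lost without young replicate 4. *Hadh* changed by -0.26 (standard error 0.07, adjusted p = 0.0449) and was lost in 14 of 24 alternatives. The 4 dehydrogenases did not pass here, with changes from -0.31 (*Acadm*, adjusted p = 0.0567) to -0.09 (*Acads*, adjusted p = 0.687). With TMM-type factors 3 of the 4 passed, *Acadm* (-0.48, adjusted p = 0.00693), *Acadvl* (-0.43, adjusted p = 0.0048) and *Acadl* (-0.37, adjusted p = 0.0227). *Cd36*, at 21.1 ± 6.12 TPM (SD, n = 4) in abnormal and 27.2 ± 5.03 TPM in young fibers, had a change of -0.38 (95% interval -0.89 to 0.12). The count was 2 without young replicate 4, 10 without normal replicate 1 and 13 with TMM-type factors, all 13 lower. Over all genes, 4.18%, 11.6% and 7.89% were called in these settings, against 8.5% as reported. With TMM-type factors 693 of all genes were called lower instead of 347.

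*Acot2* was at 4.67, 4.92, 5.82 and 5.84 TPM in young, 6.41, 8.00, 9.32 and 9.04 TPM in normal and 8.49, 7.82, 7.26 and 7.82 TPM in abnormal samples. Every aged sample exceeded every young sample, and the aged groups overlapped. Its change against young fibers was 0.49 (standard error 0.13, adjusted p = 0.036) in abnormal fibers, lost in 10 of 24 alternatives including the removal of any one young or abnormal sample, and 0.54 (adjusted p = 0.0736) in normal fibers. *Acot1*, 95.1% identical over 53.0% of the *Acot2* transcript, was never above 0.365 TPM.

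The Fluo-4 normal fibers, compared with young fibers, address what differs with age in fibers of ordinary staining. The aged mice came from the colony of a research center and the young mice from a commercial breeder, so age and source cannot be told apart. Here 0 of the 33 genes fell and 3 rose, *Slc27a1*, *Cd36* and *Acadl* (17 higher and 1 lower at an unadjusted p under 0.05). Over all genes, 0.589% were called lower and 0.561% higher, and 1865 of 14427 had an unadjusted p under 0.05. The fitted change was positive in 28 genes, with a median of 0.23, against -0.02 for all genes. In 10 genes all normal samples were above all young samples and in 0 below, which held for 3.03% and 4.96% of all genes. *Slc27a1* rose by 0.88 (standard error 0.13, adjusted p = 0.00598), kept in 23 of 24 alternatives. *Cd36*, at 58.2 ± 15.2 TPM (SD, n = 4) against 27.2 ± 5.03 TPM in young fibers, had a change of 1.05 (standard error 0.23) with an adjusted p = 0.04998, and *Acadl* one of 0.48 (standard error 0.10, adjusted p = 0.0417). *Cd36* was lost in 15 and *Acadl* in 14 of 24 alternatives, and the removal of any one young sample left *Slc27a1* as the 1 call. The other dehydrogenases had changes of 0.28 to 0.39, with *Acadm* at an adjusted p of 0.0607. *Lpl*, at 64.6 ± 31.5 TPM (SD, n = 4) in normal and 64.3 ± 9.33 TPM in young fibers, had a change of -0.13 (95% interval -0.99 to 0.73). The endothelial, adipocyte and erythroid marker sums given beside *Cd36* were also higher in most normal than young samples, and their part was not tested. The count was 7 with TMM-type factors, 8 without normal replicate 1 and 0 with only these 2 groups in the fit (16 higher unadjusted, beside 1988 of all genes in either direction). Over all genes, 1.64%, 1.43% and 0.478% were called in these settings, against 1.15% as reported.

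The comparisons with young fibers share the young samples, so their values are set side by side only. *Fabp3* had changes of -0.63 in abnormal and 0.26 in normal fibers, *Acaa2* of -0.47 and 0.35, *Acot13* of -0.40 and 0.14, *Acadm* of -0.31 and 0.39, and *Etfa* of -0.13 and 0.25. The directions were opposite in these genes, but none of them passed in normal fibers, and *Acadm* and *Etfa* passed in neither comparison. *Acot2* (0.49 and 0.54) and *Mlycd* (0.23 and 0.37) were positive in both, as were *Slc27a1*, *Plin5*, *Lipe*, *Acsl1*, *Acat1* and *Decr1*. *Plin2* (-0.30 and -0.23) was negative in both, as were *Lpl*, *Cpt2* and *Acaa1a*. Of the genes with the same sign in both, only *Acot2* and *Lpl* passed in abnormal and *Slc27a1* in normal fibers.

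Other genes of lipid metabolism were grouped in 8 lists. Of their 106 genes tested, 9 fell and 2 rose between normal and abnormal fibers, beside 1.99% lower and 7.36% higher over all genes. Their changes were negative in 42 and positive in 64 genes, with a median of 0.06, beside 0.10 for all genes. Of 14 further uptake and droplet genes 1 fell, *Got2* (-0.42, adjusted p = 0.0107), which encodes mitochondrial aspartate aminotransferase, also known as a fatty acid binding protein of the plasma membrane. Of 11 further activation and carnitine genes 1 fell, *Dbi* (-0.46, adjusted p = 0.0122), which encodes the acyl-CoA binding protein. Of 17 further mitochondrial oxidation genes 0 passed, and 15 were positive. Of 16 peroxisomal genes tested, *Phyh*, the phytanoyl-CoA hydroxylase of alpha-oxidation, fell (-0.53, adjusted p = 0.00939) and *Crot*, the carnitine octanoyltransferase, rose from 22.1 ± 2.17 to 31.8 ± 0.589 TPM (SD, n = 4) with a change of 0.51 (adjusted p = 0.00292). Among 18 synthesis genes *Dgat2* (-0.89, adjusted p = 0.0241) and *Agpat2* (-0.81, adjusted p = 0.0274), which act in the making of triacylglycerol, fell from 8.75 to 4.06 TPM and from 2.15 to 0.806 TPM. Of 5 genes of mitochondrial fatty acid synthesis *Ndufab1*, the acyl carrier protein that is also part of complex I, fell (-0.47, adjusted p = 0.0422), and of 4 ketone body genes 0 passed.

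Of 21 regulators of fatty acid oxidation, 3 fell and 1 rose. *Perm1*, a muscle factor acting with PGC-1α and the ERRs, fell from 53.8 ± 9.73 to 23.9 ± 5.34 TPM (SD, n = 4), a change of -1.15 (adjusted p = 0.000992), and was at 51.6 ± 5.23 TPM in young fibers. *Esrrg*, which encodes ERRγ, fell from 2.26 ± 0.842 to 0.682 ± 0.206 TPM (-0.93, adjusted p = 0.00823), and *Sirt3*, the mitochondrial deacetylase, from 21.6 ± 3.68 to 13.7 ± 2.11 TPM (-0.62, adjusted p = 0.0125). *Nrip1*, whose product RIP140 is a corepressor of nuclear receptors, rose from 14.2 ± 3.60 to 24.9 ± 1.72 TPM (0.80, adjusted p = 0.0142). In these 4 genes the aged groups did not overlap. *Ppara* (-0.52, adjusted p = 0.202) and *Ppargc1a*, which encodes PGC-1α (-0.20, adjusted p = 0.526), did not pass.

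The TCA cycle, into which the acetyl-CoA of the spiral flows, was represented by 18 genes. Between abnormal and normal fibers 17 were lower and 11 passed, all lower, with a median of -0.30, near the -0.32 of the 33 fatty acid genes. Over all genes, 1.99% were called lower there, and 2.41% between abnormal and young fibers. Between abnormal and young fibers 10 of the 18 TCA cycle genes passed, all lower, with a median of -0.28, beside 5 of the 33 fatty acid genes called lower and a median of -0.13. Between normal and young fibers the medians were 0.03 for the TCA cycle, with 0 genes passing, and 0.23 for the fatty acid genes. The TPM of the 33 genes divided by that of the 18 TCA cycle genes was 0.506 to 0.555 in young, 0.587 to 0.652 in normal and 0.536 to 0.563 in abnormal samples. The normal samples lay above both other groups, which overlapped. The difference between the lists was not tested.

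The criteria in the methods of the study ask for a change of at least 2-fold against young fibers and an unadjusted p under 0.05 between the aged groups. They do not say which aged group the 2-fold change refers to. Read on the mean of the abnormal fibers, they were met by 1 of the 33 genes, *Lpl*, whose mean there was 0.248 of that in young fibers. Read on either aged group, a choice made after the data were seen, they were met by 2 genes, *Lpl* and *Cd36*, the latter with a mean in normal fibers 2.14 times that in young fibers. Without the 2-fold condition 23 genes met them, and so did 3693 of all 14427 genes tested. How many of all genes met the full criteria was not counted.

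**Figure D5:**
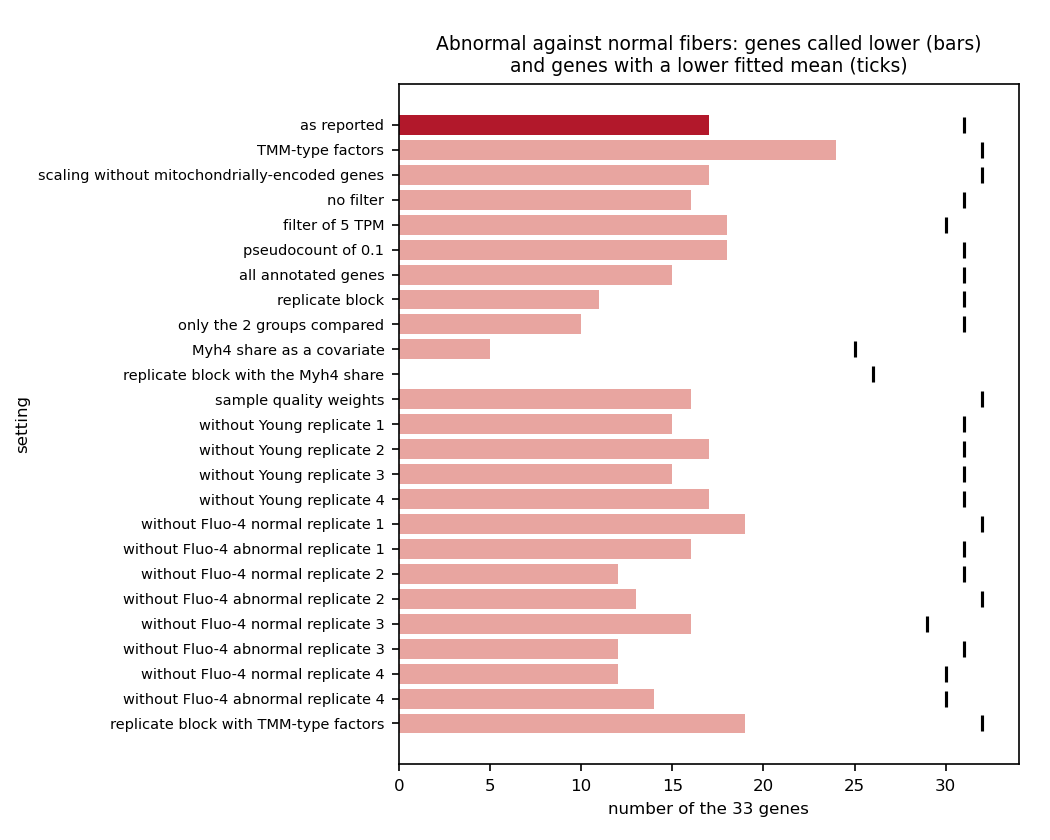
Number of the 33 genes called lower between abnormal and normal fibers (bars) and with a lower fitted mean (ticks) under each setting, with 31 genes tested under the filter of 5 TPM. The bars run from 0, where block and *Myh4* share were combined, to 24 with TMM-type factors, and the ticks from 25 to 32.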

How the data were processed

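RNA-seq was carried out on EDL fibers in 4 young, 4 Fluo-4 normal and 4 Fluo-4 abnormal samples. The deposited values are TPM per gene, which the authors obtained with DRAGEN 4.3 on GRCm39. TPM sum to 1000000 in each sample, so counts and depth are unknown. The annotation release is not given in the sources used here. Among 55487 entries, 114 symbols stood on several lines, and these were summed.

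Log2(TPM + 1) was fitted with limma 3.58.1 (R 4.3.3) as a 3-group model with a variance trend and without a replicate block. The Benjamini-Hochberg adjustment covered 14427 protein-coding and mitochondrially-encoded genes with a mean of at least 0.02 TPM in any group, and the threshold was an adjusted p of 0.05. The script was tested on simulated data. The members and lists were chosen with earlier results of these data known. Values in every sample are given for members that passed in any comparison or whose direction differed from their step. *Hsd17b8* was not analysed here.

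No source states what a replicate number stands for. Over 3035 genes, the deviations of aged samples with the same number correlated at 0.55, 0.48, 0.48 and 0.34, and those with different numbers at -0.47 to 0.30. On this ground alone same-numbered aged samples were set side by side as pairs. The reported fit held no replicate block, so its p-values and calls leave this pairing out. With the block 11 of the members were called lower between the aged groups instead of 17.

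The fit was repeated with TMM-type factors (trimming 30% and 5%), after removal of mitochondrially-encoded genes from the scaling, without the filter or with 5 TPM as the minimum, with 0.1 as pseudocount, on all annotated genes, with the replicate block, on only the groups compared, with the *Myh4* share as a covariate, with block and share together, with sample quality weights and without each sample in turn. In the comparisons with young fibers the block covered all 12 samples, so young samples were joined to aged ones by number alone. Same-numbered young and aged samples correlated at -0.13 to 0.27, and those with different numbers at -0.29 to 0.35. These block fits are counted among the 24 alternatives. The block with TMM-type factors and the reading of the 2-fold condition on either aged group were added after the data were seen. Positions came from GENCODE vM39. Of the members, 25 overlap another gene by at least 100 bp, and 5 have a copy of at least 95% identity over 50% of the transcript (BLAST 2.17.0). Python 3.11.15, pandas 2.3.3, numpy 2.4.6, pysam 0.24.0 and matplotlib 3.10.9 were used.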

Additional observations from a re-analysis of the deposited data

Results flagged for a closer look

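In each gene and group, the sample farthest from the other 3 was set against the range of the group (Dixon's test for 4 samples). Of 99 checks 8 were past the 95% critical value, where chance gives about 1 in 20. In the young fibers, replicate 2 had the lowest *Cd36*, 19.6 TPM against 29.1 to 29.98 TPM. In the normal fibers, replicate 1 had the lowest *Pnpla2*, 106 TPM against 169 to 172 TPM. The other 6 were in the abnormal fibers. *Fabp3* was high in replicate 1, at 373 TPM against 280 to 286 TPM, and *Echs1* was low there, at 92.4 TPM against 108 to 111 TPM. *Cpt1a* was low in replicate 2, at 0.515 TPM against 1.14 to 1.24 TPM. Replicate 3 was low in *Acads*, 16.8 TPM against 19.0 to 19.2 TPM, and in *Etfa*, 180 TPM against 209 to 214 TPM. *Hadha* was low in replicate 4, at 40.8 TPM against 46.1 to 46.3 TPM.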

How the results depend on the processing

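Between abnormal and normal fibers the 17 calls became 11 with the replicate block, 10 with only the aged groups, 5 with the *Myh4* share and 0 with block and share together, and ranged from 12 to 19 when 1 sample was left out. The share of all genes called in either direction, 9.35%, became 7.97%, 3.92%, 5.68% and 0% in these settings. It was 5.88% with TMM-type factors, and 4.61% to 10.1% when 1 sample was left out. The median of -0.32 became -0.55 with TMM-type factors, with and without the block, -0.19 with the *Myh4* share and -0.18 with share and block. The 22 calls among the pathway genes, TCA cycle included, became 34 with TMM-type factors, 9 with only the aged groups, 9 with the *Myh4* share and 0 with share and block, and ranged from 14 (without normal replicate 2) to 26 (without abnormal replicate 1). Between abnormal and young fibers the 6 calls became 13 with TMM-type factors and 14 with the block added, the median of -0.13 became -0.30 with both, and the calls ranged from 2 (without young replicate 4) to 10 (without normal replicate 1). Of all genes, 8.5% were called as reported, and 7.89%, 9.98%, 4.18% and 11.6% in these settings. Between normal and young fibers the 3 calls became 7 with TMM-type factors, 9 with the block added, 6 with the filter of 5 TPM, 8 with sample quality weights, 5 with the replicate block, 1 with all annotated genes, 1 with the *Myh4* share, 1 with share and block and 0 with only these groups, and ranged from 1 to 8 (without normal replicate 1). Of all genes, 1.15% were called as reported. In the same order that share was 1.64%, 2.43%, 4.19%, 2.48%, 2.22%, 0.537%, 0.79%, 1.03% and 0.478%, and 0.382% to 1.43% when 1 sample was left out. The criteria of the methods, met by 1 gene, were met by 2 with the 2-fold change in either aged group and by 23 without the 2-fold condition. Without that condition they were met by 3693 of all 14427 genes. No called value turned its direction under the alternatives run. The cause of these shifts was not tested, and with TPM alone the part of depth cannot be given.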
